A study of Rattus norvegicus with 24 samples.

Results

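The 7 transcription factor genes described here are known for their part in the regrowth of injured sensory axons: *Atf3*, *Jun*, *Sox11*, *Stat3*, *Smad1*, *Klf6* and *Klf7*. They were taken by name from the 32881 genes that all count files share, and all 7 were present and passed the filter on low counts in each fit over all neurons. Their counts were read in the 1433 neurons that had at least 500 detected genes, at least 1000 unique molecular identifiers (UMIs) and a share of mitochondrially encoded transcripts under 5%. The choice of genes used no measured value of a comparison, but it was made with earlier results of these data known.

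The cells were neurons of the lumbar 4 and 5 dorsal root ganglia (DRG) of male Sprague-Dawley (SD) rats of 200 g, whose age is not given in the sources used here. In the spared nerve crush (SNC), the tibial and common peroneal branches of the sciatic nerve were crushed and the sural branch was left intact, so a ganglion held both crushed and uncrushed neurons; sham rats had the nerve exposed without injury. Per the protocol text, neurons that had taken up a dye injected into a branch beforehand were picked by mouth pipette and sequenced with a modified Smart-seq2 protocol that counts UMIs. No group carries a transgene or a drug. The labels give the number of directly and indirectly injured cells for 17 libraries of 16 DRG samples, called labelled here: 4 sham samples with 215 neurons, 4 samples at 1 day after SNC with 238, 3 at 3 days with 237 and 5 at 7 days with 240. In the study's sample records, a pair of libraries at 1 day shares a sample number and a date of reverse transcription, as does a pair at 7 days. They were counted as separate samples, and whether a pair came from the same rats is not given. Another 7 libraries with 503 neurons, called added sham, are marked as new libraries of sham rats at 0, 1, 3 or 7 days, and their labels give no such cell numbers. The paper counts 936 fluorescently labelled neurons, the number of cells in the 17 labelled libraries before filtering. It sets apart further neurons, used to annotate subtypes, which it does not call labelled. By this count the added sham neurons were not among the labelled ones, though the paper does not name these libraries there. Whether their rats were injected is not given. Cell names do not carry the dye, so crushed and uncrushed neurons of a sample were not separated.

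When a peripheral axon is cut or crushed, stress kinases of the DLK-JNK path phosphorylate the Jun protein, cytokines of the gp130 family activate STAT3 through JAK kinases, and BMP receptors activate SMAD1. ATF3, SOX11 and the Krüppel-like factors KLF6 and KLF7 are best known as factors whose genes are switched on or needed in neurons that regrow an axon. STAT3, SMAD1 and Jun are also controlled by phosphorylation, which RNA counts do not show.

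Summed over the neurons of a DRG sample, the counts reached 4002503 to 28975829 UMIs in the labelled groups and 14004136 to 40732975 in added sham. The neuronal markers *Tubb3*, *Uchl1*, *Snap25*, *Prph* and *Rbfox3* were found in every sample. The summed level of 10 satellite glia and Schwann markers was 330 to 1491 CPM (a gene's UMIs per 1000000 UMIs of the sample) over the labelled samples and 145 to 1616 CPM in added sham, and that of 8 immune markers stayed between 4.71 and 52.1 CPM in all 23 samples. All 96 cell numbers recur in more than 1 library. No pair of samples of a group agreed within sampling noise, since the chi-square per degree of freedom between them was at least 10.7.

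After SNC, no difference of the 7 genes from labelled sham was detectable with these samples. At each of the 3 times 0 of the 7 passed an adjusted p of 0.05 (edgeR quasi-likelihood test, all 14239 genes tested), and 0% of all genes did. The largest difference of a member was that of *Jun* at 1 day, −0.45 ± 0.28 on the log2 scale (SE, 4 against 4 samples). Without adjustment, 1243, 594 and 476 genes reached a p under 0.05 in order of time, none of them a member. DESeq2 called 9, 1 and 0 genes, and 0 members.

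*Atf3*, a stress-induced bZIP factor that marks axotomized neurons, had levels of 1098, 377, 559 and 483 CPM in the 4 labelled sham samples (TMM-normalized over all 23 samples, as for the other levels by sample). At 1 day after SNC it was at 463, 677, 566 and 455 CPM, at 3 days at 450.0, 559 and 611 CPM, and at 7 days at 599, 660.1, 676, 381 and 521 CPM. The groups overlapped, and the highest of all 16 values was that of a sham sample. The log2 fold change from labelled sham was −0.21 ± 0.26 at 1 day, −0.23 ± 0.28 at 3 days and −0.17 ± 0.25 at 7 days (SE; edgeR adjusted p of 0.85, 0.98 and 1.00). That sham sample had 24 neurons and the fewest UMIs of all samples, 4002503. By the neuron types named below, it held 10 PEP2-like, 4 PEP1-like, 1 NF-like and 7 unnamed cells high in glial markers. It held no NP-like or PEP3-like cells, the types with the lowest *Atf3*, and the part of this makeup was not tested. Without that sham sample the differences had the opposite sign, at 0.20 ± 0.19, 0.18 ± 0.21 and 0.25 ± 0.19, and still failed the test.

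*Jun*, whose protein pairs with other bZIP factors in AP-1, lay at 861, 314, 455 and 306 CPM in labelled sham. The values were 320.0, 369, 366 and 354 CPM at 1 day, 345, 343 and 440.4 CPM at 3 days, and 458, 453, 525, 243 and 351 CPM at 7 days. The same sham sample was again the highest, and the groups overlapped. The differences from labelled sham were −0.45 ± 0.28, −0.38 ± 0.30 and −0.27 ± 0.26 on the log2 scale (adjusted p of 0.65, 0.97 and 1.00), and without that sample −0.02 ± 0.20, 0.06 ± 0.22 and 0.17 ± 0.20, again without a call.

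*Sox11*, a high-mobility-group factor of developing neurons, had 21.4, 6.78, 15.4 and 7.38 CPM in labelled sham. It had 15.8, 12.1, 17.1 and 16.7 CPM at 1 day, 20.4, 14.3 and 15.0 CPM at 3 days, and 18.8, 17.2, 16.7, 5.43 and 10.6 CPM at 7 days. It was the member whose mean lay above labelled sham at each time, by 0.31 ± 0.38, 0.40 ± 0.41 and 0.13 ± 0.36 on the log2 scale (adjusted p of 0.84, 0.97 and 1.00), with groups that overlapped. *Smad1*, which carries the signal of BMP receptors to the nucleus, had 272, 155, 187 and 155 CPM in labelled sham, 176, 193, 195 and 196 CPM at 1 day, 170.4, 172 and 186 CPM at 3 days, and 220.1, 199, 219, 115 and 195 CPM at 7 days. Its differences were within 0.14 of 0 on the log2 scale at all 3 times. *Stat3* ranged from 333 to 536 CPM in labelled sham and from 321 to 452 CPM over the SNC samples, *Klf6* from 92.7 to 309 and from 149 to 266 CPM, and *Klf7* from 336 to 489 and from 266 to 465 CPM. None of these 3 differed from labelled sham by more than 0.18 on the log2 scale and the groups overlapped for each.

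**Figure D1:**
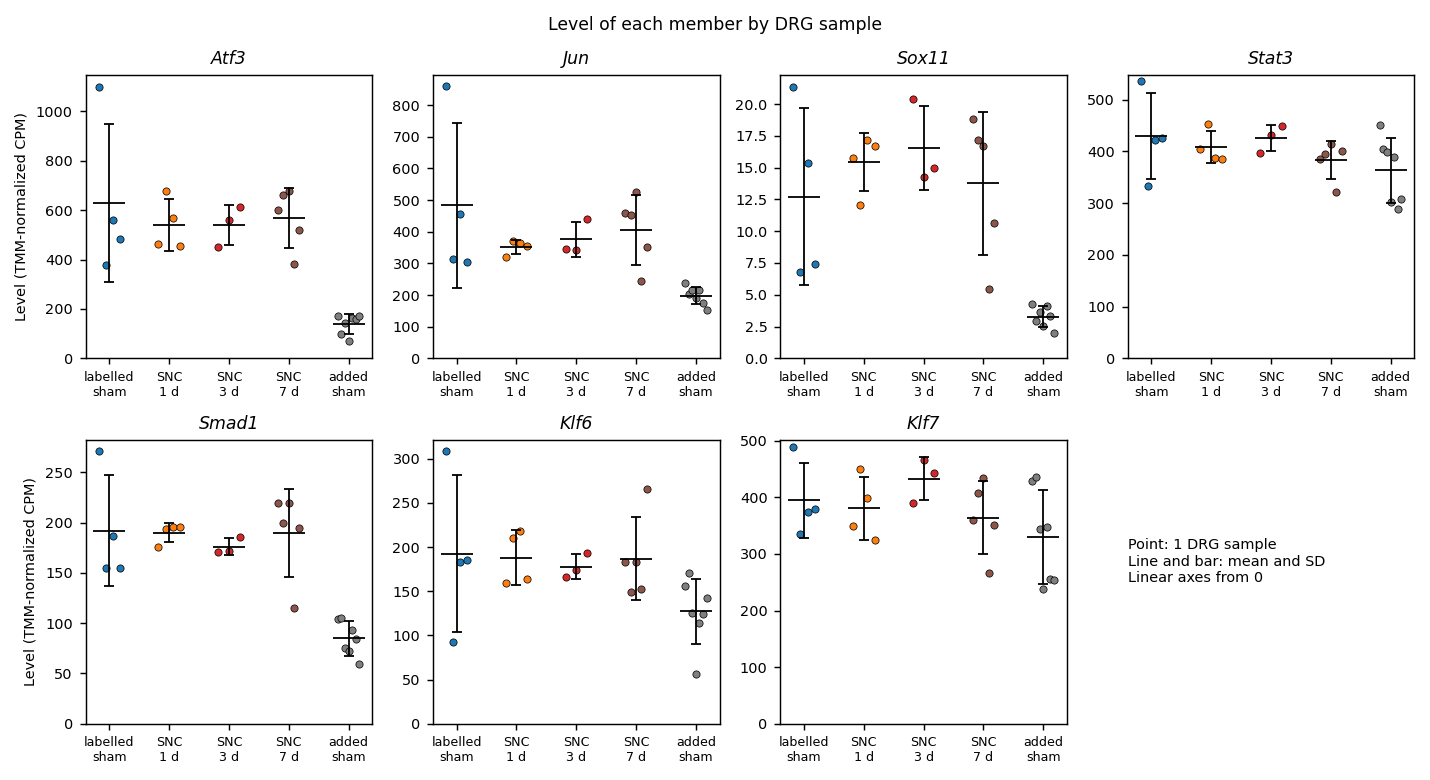
Level of each gene in every DRG sample (TMM-normalized CPM, linear axes from 0) by group; points are samples, and the line and bar are the mean and SD. Labelled sham and the SNC groups overlap for all 7 genes, while *Atf3*, *Jun*, *Sox11* and *Smad1* in the 7 added sham libraries lie below each labelled sample. The share of all genes so separated was not counted.

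Between SNC times the members did not differ past the threshold either. From 1 to 7 days, 0 of 7 were called, beside 0% of all genes, with log2 differences between −0.18 (*Sox11*) and 0.18 (*Jun*), and 944 genes with an unadjusted p under 0.05 and 21 called by DESeq2. From 1 to 3 days, 0 of 7 were called, beside 0% of all genes, with differences between −0.13 (*Smad1*) and 0.17 (*Klf7*), 439 genes with an unadjusted p under 0.05 and 6 called by DESeq2. No member was among those 21 or 6 genes.

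The date of reverse transcription, taken from the study's sample records, moved with the groups and spanned 2 calendar years. All 4 samples at 1 day and all 3 at 3 days were made in the later year, against 1 of 4 labelled sham and 2 of 5 samples at 7 days. With the year as a term, *Atf3* at 1 day was 0.18 ± 0.30 above labelled sham and *Sox11* 1.15 ± 0.37 (adjusted p of 0.89 and 0.52). With each date as a block, the differences at 1 day were 0.73 ± 0.27 for *Atf3*, 0.66 ± 0.24 for *Jun* and 1.81 ± 0.61 for *Sox11* (adjusted p of 0.31, 0.31 and 0.28). At 3 days they were 0.97 ± 0.30, 0.92 ± 0.27 and 1.61 ± 0.66. A sample alone on its date adds nothing to such a value. Only 1 sample at 3 days and 2 at 1 day shared a date with another group, the same date as 2 samples at 7 days. The values at 3 days thus rest on 1 sample and those at 1 day on 2. Since 0 of 4 samples at 1 day and 0 of 3 at 3 days shared a date with a sham sample, these values pass through the dates that hold samples at 7 days. At 7 days, where 2 of 5 samples shared a date with sham, the differences with the block were 0.53 ± 0.19 for *Atf3*, 0.36 ± 0.17 for *Jun*, 0.71 ± 0.43 for *Sox11* and 0.29 ± 0.23 for *Smad1*, each with an adjusted p of 1.00. In those pairs of a date *Atf3* went from 377 CPM in sham to 660.1 CPM at 7 days and from 559 to 676 CPM. *Jun* went from 314 to 453 and from 455 to 525 CPM, *Sox11* from 6.78 to 17.2 and from 15.4 to 16.7 CPM, and *Smad1* from 155 to 199 and from 187 to 219 CPM, so for these 4 genes the sample at 7 days was the higher of each pair. *Klf7* went from 336 to 408 and from 374 to 433 CPM, *Klf6* from 92.7 to 149 and from 182.6 to 182.9 CPM. *Stat3* went from 333 to 396 CPM and, in the second pair, down from 422 to 414 CPM. Both pairs also differed in neuron types, named below and given for sham against 7 days. The first had 8 against 18 NF-like, 5 against 10 PEP1-like, 14 against 9 PEP2-like and 6 against 3 PEP3-like of 48 cells, with 6 NP-like cells in sham alone. The second had 7 against 6 NF-like, 7 against 13 PEP1-like, 11 against 10 PEP2-like, 5 against 7 PEP3-like and 4 against 2 NP-like cells. The part of this makeup was not tested. None of the 7 was called in these fits, though the direction of *Atf3* and *Jun* turned. Among the samples of the earlier year alone, with 3 labelled sham and 3 samples at 7 days, *Atf3* differed by −0.10 ± 0.35 and *Sox11* by 0.27 ± 0.40; this fit was chosen after seeing the data and includes the sham sample with the highest *Atf3*, which shared its date with no other sample. In the later year there was 1 labelled sham sample, too few for a fit of its own.

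Within single neuron types no member passed after SNC either. The labelled neurons fell into 10 clusters, of which 9 were named from marker genes: 187 PEP1-like, 187 PEP2-like and 116 PEP3-like cells (peptidergic nociceptors), 174 NF-like (the study's name for A-fibre mechanoreceptors with neurofilament), 129 SST-like (itch neurons), 66 NP-like (nonpeptidergic nociceptors) and 29 cold-like cells, while 42 cells high in glial markers stayed unnamed. Of the NF-like cells, 91 were of a cluster with 11 of 11 NF markers high and 83 of a cluster with 5 of 11. Whether the latter are all such mechanoreceptors was not tested. In PEP1-like neurons 0 of 7 members were called at any time after SNC, beside 0.00941%, 0.00941% and 0% of the 10622 genes tested at 1, 3 and 7 days. *Jun* at 1 day came nearest there, at −0.60 ± 0.22 on the log2 scale with *Atf3* at −0.52 ± 0.19 (both with an adjusted p of 0.38). In PEP2-like neurons 0 of 7 were called, beside 0% of 10131 genes at each time, and *Smad1* at 3 days differed most by p, at −0.55 ± 0.16 (adjusted p of 0.63).

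In PEP3-like neurons 0 of 7 were called, beside 0% of 10334 genes at each time. *Atf3* at 1 day was 0.77 ± 0.25 above labelled sham there (adjusted p of 1.00), with 300 to 552 CPM in 3 samples against 172 to 274 CPM in 3 sham samples. *Sox11* in the same cells at 7 days was 2.06 ± 0.86 above labelled sham (adjusted p of 0.98). In NF-like neurons 0 of 7 were called, beside 0% of 13012 genes at each time, and *Klf6* at 7 days was 0.63 ± 0.27 above labelled sham (adjusted p of 1.00). Genes with an unadjusted p under 0.05 numbered 500 to 1122 per time in PEP1-like, 446 to 713 in PEP2-like, 148 to 521 in PEP3-like and 304 to 561 in NF-like neurons. Members were among them 9 times over the 12 fits, and DESeq2 called 0 to 12 genes per fit and 0 members.

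Set against added sham, 4 of the 7 genes were higher in each labelled group, sham included. In labelled sham, *Atf3* was 2.17 ± 0.24 higher on the log2 scale (SE, 4 against 7 samples; edgeR adjusted p of 6.46e-07), *Sox11* 1.94 ± 0.32 (3.86e-05), *Jun* 1.28 ± 0.22 (5.21e-05) and *Smad1* 1.18 ± 0.17 (1.01e-05). *Klf6*, *Klf7* and *Stat3* differed by 0.59 ± 0.25, 0.26 ± 0.16 and 0.24 ± 0.13 and did not pass (adjusted p of 0.055, 0.20 and 0.12). The background was wide: 47.6% of the 15954 genes passed in either direction, 23.9% higher and 23.7% lower. Labelled and added libraries also differ in library set, by the paper's count in dye labelling, and in the makeup of neuron types, and these cannot be told apart.

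*Atf3* in the 7 added sham libraries had a lowest level of 70.9, a median of 158 and a highest of 173 CPM, below the lowest labelled sample at 377 CPM. *Jun* lay at 154, 204 and 237 CPM by the same measures, *Sox11* at 1.99, 3.33 and 4.29 CPM, and *Smad1* at 59.3, 84.0 and 105 CPM. For these 4 genes no added sham library reached any of the 16 labelled samples, although for *Jun* the gap was narrow, with 243 CPM in the lowest labelled sample. The share of all genes separated in this way was not counted, so the separation cannot be read as particular to the members. The other 3 genes overlapped: *Stat3* had 289, 389 and 451 CPM, *Klf6* 56.7, 126 and 170.1 CPM, and *Klf7* 238, 344 and 436 CPM.

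The SNC groups share the added sham libraries as controls with that comparison, and their values stand beside it without being independent of it. At 1, 3 and 7 days in turn, *Atf3* was higher by 1.95 ± 0.24, 1.95 ± 0.26 and 2.02 ± 0.23. *Sox11* was higher by 2.24 ± 0.31, 2.34 ± 0.33 and 2.08 ± 0.30, *Smad1* by 1.17 ± 0.17, 1.05 ± 0.18 and 1.16 ± 0.16, and *Jun* by 0.83 ± 0.22, 0.92 ± 0.23 and 1.03 ± 0.20. These 4 of 7 members passed at each time (edgeR adjusted p of at most 0.0040), beside 43.2%, 40.1% and 52.9% of all genes, of which 21%, 20.4% and 26.3% were higher and 22.2%, 19.7% and 26.6% lower. *Stat3*, *Klf6* and *Klf7* did not pass at any time. Without the second labelled sham sample, 6 of 7 members passed in labelled sham against added sham, beside 43.1% of the 16477 genes then tested.

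**Figure D2:**
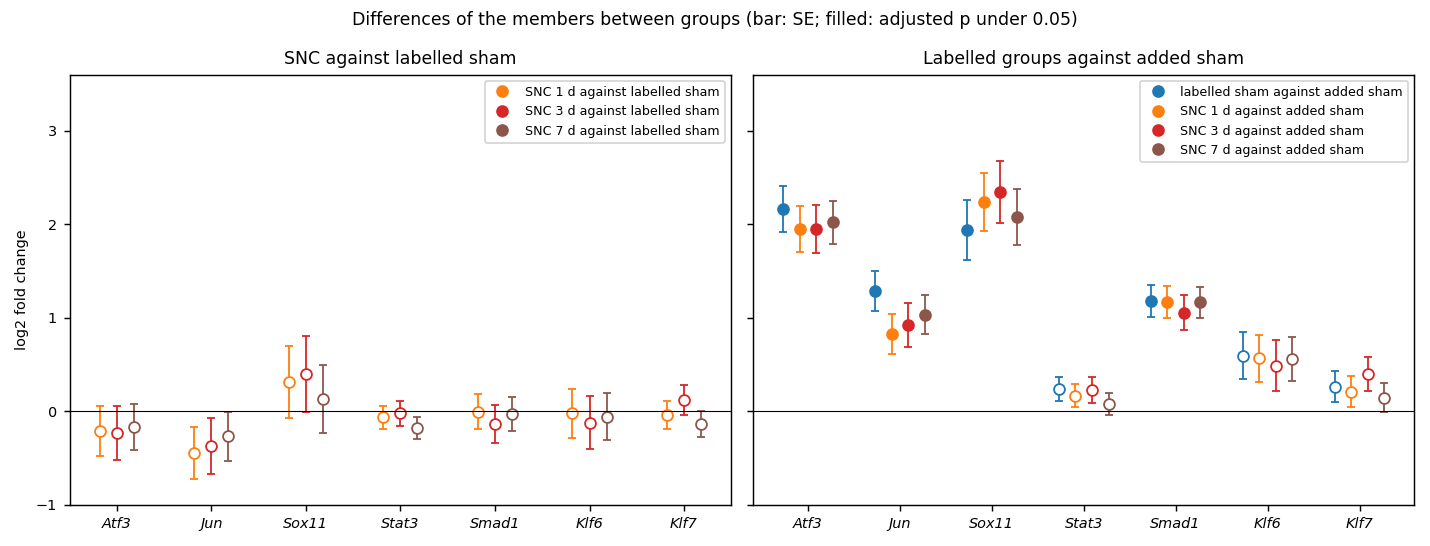
Log2 fold changes of the 7 genes (y axis) with their SE, for the SNC groups against labelled sham (left) and for each labelled group against added sham (right); filled points have an edgeR adjusted p under 0.05. No point is filled on the left, and on the right the filled points are *Atf3*, *Jun*, *Sox11* and *Smad1*.

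Both sets hold NF-like, NP-like and SST-like neurons, and the comparison with added sham was repeated in each; these fits were chosen after seeing the data. In NF-like neurons, *Atf3* lay at 131 to 518 CPM in 3 labelled sham samples and at 50.1 to 242 CPM in 5 added sham libraries, a log2 difference of 1.46 ± 0.41 (edgeR adjusted p of 0.013). *Smad1* and *Jun* were higher there by 1.13 ± 0.27 and 0.84 ± 0.23 (adjusted p of 0.0046 and 0.012) and *Sox11* by 1.19 ± 0.54 (adjusted p of 0.10), so 3 of 7 members passed, beside 29.6% of 13631 genes. At 1 and 3 days after SNC 5 and 4 of 7 passed in these neurons, beside 27.1% and 20.6% of genes. At 7 days 5 of 7 passed, *Klf6* among them at 0.94 ± 0.29 (adjusted p of 0.015), beside 38.9% of genes. Labelled NF-like cells were 91 of a cluster led by *Shox2* and *Smpx* and 83 of a cluster led by *S100a16* and *Nppa*. The 97 added NF-like cells were 1 cluster led by *Shox2* and *Lypd1*. In added sham *S100a16* and *Chp2* were among the leading genes of a PEP-like cluster in another clustering (below). The name thus covers unlike cells in the sets, and the part of this was not tested.

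In NP-like neurons, 0 of the 7 passed in labelled sham against added sham, beside 36.5% of 12535 genes. *Atf3* had 52.0 to 193 CPM in 3 labelled sham samples and 95.7 to 235 CPM in the 7 added libraries there, a difference of −0.58 ± 0.36 (adjusted p of 0.21), and *Jun* one of −0.39 ± 0.19 (adjusted p of 0.11). In that fit 5834 genes had an unadjusted p under 0.05. At 1 day after SNC 0 of 7 passed, beside 33.5% of genes, with *Atf3* at 0.70 ± 0.34 (adjusted p of 0.12), and at 3 days 0 of 7, beside 26.7%. Genes with an unadjusted p under 0.05 then numbered 5538 and 4970. The labelled NP-like cells were 1 cluster led by *Mrgprb4* and *Chrna3*, while the 225 added NP-like cells were 3 clusters led by *Rbp2*, *Lmx1a* and *Cav1*. DESeq2 was not run within these types, and whether the types differ from each other was not tested.

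In SST-like neurons, *Atf3* and *Smad1* passed, at 1.32 ± 0.26 and 1.00 ± 0.23 (adjusted p of 3.23e-04 and 0.0013), which is 2 of 7 members beside 39.3% of 10480 genes. After SNC 3, 4 and 4 of 7 passed at the 3 times, beside 30.5%, 31.1% and 47.7% of genes: *Atf3*, *Sox11* and *Smad1* higher each time, and *Stat3* lower at 3 days (−0.37 ± 0.14) and 7 days (−0.33 ± 0.12). The clusters behind the name were not the same. Labelled SST-like cells came from 72 cells of a cluster led by *Fezf2* and *Papss2*, in which *Atf3* was at 736 ± 116 CPM (SD, n = 12 samples), and from 57 cells of a cluster led by *Sst* itself, in which it was at 246 ± 73.7 CPM (n = 8). The 28 added SST-like cells expressed *Sst* and had *Atf3* at 260.2 ± 102.5 CPM (n = 6), near the second of these clusters. *Smad1* was also highest in the first, at 250.2 ± 45.2, 123 ± 36.3 and 100.5 ± 28.7 CPM, and *Sox11* was at 19.1 ± 15.8, 2.11 ± 1.20 and 3.67 ± 3.44 CPM. These levels are CPM over the cells of a type in a sample, not TMM-normalized.

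Because 4 members moved together against added sham, the promoters of the group were searched for 3 short motifs on both strands. RefSeq (rat build GRCr8) gave a promoter of 300 bases, from 250 bases before the start of transcription, for 5 of the 7 genes, *Atf3* and *Jun* being the exceptions; the counts themselves were made on Rnor_6.0 and carry no positions. The ATF motif TGANNTCA was in 2 of the 5, *Sox11* and *Klf6*, and in 15.3% of all 33469 promoters. The AP-1 motif TGANTCA and the STAT motif TTCNNNGAA were in 0 of the 5, against 7.33% and 8.87% of all promoters, and neither overlaps the ATF motif by its letters. The promoters are printed for these 2 genes, on the minus strand at chr6:49738745-49739044 for *Sox11* and chr17:69458429-69458728 for *Klf6*, with the match in capitals:
Sox11: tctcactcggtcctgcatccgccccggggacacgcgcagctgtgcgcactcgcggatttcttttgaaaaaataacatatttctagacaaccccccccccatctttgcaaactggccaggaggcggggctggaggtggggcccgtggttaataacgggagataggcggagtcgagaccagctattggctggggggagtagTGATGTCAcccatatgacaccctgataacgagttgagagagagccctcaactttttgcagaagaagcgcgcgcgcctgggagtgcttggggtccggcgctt
Klf6: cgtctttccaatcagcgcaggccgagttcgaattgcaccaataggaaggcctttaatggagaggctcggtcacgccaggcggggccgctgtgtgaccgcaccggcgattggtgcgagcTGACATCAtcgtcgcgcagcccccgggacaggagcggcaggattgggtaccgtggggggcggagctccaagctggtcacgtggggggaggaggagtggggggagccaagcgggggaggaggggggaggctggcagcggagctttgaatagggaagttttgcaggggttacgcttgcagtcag
The matched letters are TGATGTCA, 51 bases before the start of *Sox11*, and TGACATCA, 132 bases before that of *Klf6*. *Sox11* was among the genes called against added sham and *Klf6* was not.

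The genes around the members moved in both directions between labelled sham and added sham, and their counts stand beside a background of 23.9% of all genes higher and 23.7% lower. Of 16 AP-1 and bZIP partners tested, 2 were higher (*Atf2* by 0.84 ± 0.31 and *Atf4* by 0.49 ± 0.16) and 3 lower (*Jund* by −1.65 ± 0.24, *Maff* by −1.09 ± 0.34 and *Cebpg* by −0.40 ± 0.16), with a median of −0.03 beside −0.03 over all genes. *Fos*, the usual partner of Jun, differed by 0.19 ± 0.32 and did not pass. Of 10 genes of the DLK-JNK path, the kinases *Mapk8* (1.03 ± 0.29), *Mapk9* (0.42 ± 0.17) and *Map2k7* (1.46 ± 0.53) and the scaffold *Mapk8ip3* (1.35 ± 0.30) were higher, and *Map3k12*, which encodes DLK itself (−1.30 ± 0.20), *Map3k13* (−0.81 ± 0.26), *Mapk8ip1* and *Mapk8ip2* were lower. The median of this list was 0.28.

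On the cytokine side, 5 of 17 gp130 and JAK-STAT genes were higher, among them the receptors *Lifr* (1.97 ± 0.31) and *Osmr* (2.29 ± 0.47), the kinase *Jak1* (1.41 ± 0.17) and the inhibitor *Socs3* (1.18 ± 0.48), a known STAT3 target. Another 5 were lower, including the ligand *Cntf* (−2.05 ± 0.48) and the shared receptor *Il6st* (−0.82 ± 0.19), which encodes gp130, and the median was 0.14. *Osmr* also served to name SST-like cells, and *Lifr* was on the PEP1 marker list without being high in the PEP1-like cluster. Around *Smad1*, 0 of 12 BMP-SMAD genes were higher and 5 were lower, with a median of −0.64: the receptors *Bmpr1a* (−1.47 ± 0.37), *Bmpr2* (−0.71 ± 0.12) and *Acvr1* (−0.62 ± 0.25), the inhibitory *Smad7* (−2.26 ± 0.34) and *Id4* (−0.66 ± 0.24). Of 10 other Krüppel-like genes 0 were higher and 4 lower, *Klf5* by −2.32 ± 0.47, *Klf16* by −1.62 ± 0.24, *Klf9*, a known brake on axon growth, by −1.28 ± 0.17 and *Klf3* by −1.12 ± 0.27, with a median of −1.09. Of 3 other SOX genes tested, 0 passed.

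Of 11 further regeneration factors, 6 were higher, led by *Arid5a* (2.86 ± 0.29), *Tfe3* (2.20 ± 0.43) and *Nfil3* (1.71 ± 0.27) and with *Myc* at 1.01 ± 0.30, and 2 lower, *Egr1* (−1.79 ± 0.38) and *Lmo4* (−1.52 ± 0.32), with a median of 0.87. Of 15 injury effectors tested 13 were higher and 0 lower, with a median of 3.53, among them *Gal* (7.60 ± 0.54), which encodes the neuropeptide galanin, *Gadd45a* (2.35 ± 0.21) and the growth cone gene *Gap43* (1.56 ± 0.16). Their summed level was 4340 to 10553 CPM over the labelled samples, sham included, and 1255 to 2341 CPM in added sham. Of 11 immediate early genes 1 was higher (*Dusp1* by 1.32 ± 0.15) and 2 lower (*Egr1* and *Arc*), and their summed levels overlapped, at 393 to 765 CPM in labelled sham and 523 to 733 CPM in added sham.

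Markers of other cells were compared in the same fit. Of 10 glial markers 0 passed in either direction between labelled sham and added sham, of 7 immune markers *Cd74* was higher and *Ptprc* lower, of 3 vascular and fibroblast markers *Dcn* was higher and *Col1a1* lower, and of 10 neuronal markers *Tubb3*, *Uchl1* and *Prph* were higher. In the SNC groups against added sham, 0 of 10 glial markers were called higher at any time and 0, 3 and 4 of 10 were called lower in order of time, with medians of −0.29, −1.69 and −1.78 on the log2 scale. Of 7 immune markers 2, 1 and 3 were called higher and 1, 0 and 1 lower, with *Cd74* at 4.24 ± 0.72 at 7 days. These markers moved with the comparison of the members, and their part in it was not tested. With the clusters high in glial markers left out, 4 of 7 members passed in each comparison with added sham. Beside them, 49.5% of 15606 genes passed in labelled sham and 45.2%, 41.3% and 53.9% after SNC, in order of time. The cluster left out of added sham held 136 cells led by *Kcng1*, *Insrr* and *Chp2*. When the injury effectors were removed from the variable genes, 106 cells formed a PEP-like cluster with 0 glial markers high, again led by *Kcng1* and *Chp2*, and 29 cells high in glial markers formed another. With 29 added and 42 labelled cells left out instead, a fit chosen after seeing the data, 4 of 7 members again passed in each comparison, with *Atf3* in labelled sham higher by 2.16 ± 0.25, beside 47.1% of 15915 genes. In the SNC comparisons with labelled sham, 0 genes of these marker lists passed, as did 0% of all genes. The lists and the members were chosen with earlier results known, and the study named several of the injury effectors on these samples.

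Transcripts of *Atf3* were found in nearly all neurons of every group. In labelled sham, *Atf3* was detected in 99.5% ± 1.04 of neurons per sample (SD, n = 4) and in added sham in 96.7% ± 3.67 (n = 7). After each neuron had been thinned to 20000 UMIs, leaving out 44 labelled and 10 added cells with fewer, the shares were 93.0% ± 6.46 and 76.1% ± 12.6 (two-sided exact permutation test, p of 0.0364, adjusted over 28 tests 0.34). *Smad1* was found in 90.9% ± 4.92 and 71.7% ± 6.82 of thinned neurons (p of 0.00606, the smallest these group sizes allow, adjusted 0.17) and *Sox11* in 18.0% ± 7.54 and 7.69% ± 2.86 (p of 0.0121, adjusted 0.17). None of the 28 share tests passed after adjustment, and a single test at the smallest p these group sizes allow could not have passed. Against labelled sham, the shares of thinned neurons after SNC differed by at most 6.82 percentage points, for *Klf6* at 7 days. Without thinning, *Sox11* was found in 51.9% ± 10.95 of labelled sham neurons and in 74.0% ± 10.7, 70.5% ± 4.35 and 68.3% ± 6.14 after SNC, in order of time. The difference at 1 day was 22.2 percentage points (two-sided exact permutation test, p of 0.0286, the smallest that 4 against 4 samples allow, adjusted 0.40). In thinned neurons the *Sox11* shares were 18.0% in labelled sham and 21.5%, 22.6% and 18.8% after SNC, in order of time. Depth was unequal without thinning, with sample medians of 170621 to 271260 UMIs per neuron in labelled sham and 204638.5 to 306472.5 at 1 day.

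Between neurons of a sample, *Atf3* ranged widely. In the labelled sham samples the tenth and ninetieth percentile of the level per neuron were 37.9 and 1080 CPM in the sample with the lowest mean, and 747 and 1445 CPM in the sample with the highest. In that last sample all 22 thinned neurons had *Atf3*, and the shares with at least 1 UMI in the other labelled sham samples were 86.7%, 88.4% and 96.8%. In the 7 added libraries the median level per neuron was 39.9 to 196 CPM. Median depth was 239286 UMIs per labelled and 340145 per added neuron.

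The members differed in where they stood among the neuron types. The levels are CPM over the cells of a type in a sample, given as a description because the clusters were made from the same cells. Although 0 of the 7 genes were among the 2000 variable genes used, 7 injury effectors were among them for labelled neurons. *Gal* and *Arg1* helped to name PEP1-like cells and *Gal* PEP2-like cells. These 2 genes had mean Spearman correlations of 0.64 and 0.44 with *Atf3* within labelled samples. The place of *Atf3* in these types is thus not independent of how the types were formed. In labelled neurons *Atf3* was lowest in NP-like (185 ± 99.4 CPM, SD, n = 8 samples) and PEP3-like neurons (245 ± 120, n = 11), followed by NF-like (446 ± 132, n = 15), SST-like (501 ± 129, n = 14), cold-like (757 ± 128, n = 5), PEP1-like (794 ± 166, n = 16) and PEP2-like neurons (850 ± 182, n = 16). Neighbours in this order lay within 1 SD of each other except at the steps from PEP3-like to NF-like and from SST-like to cold-like neurons. PEP1-like neurons exceeded the other cells of their sample in 16 of 16 samples and PEP2-like neurons in 15 of 16, while NP-like and PEP3-like neurons did so in 0 of 8 and 0 of 11.

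*Jun* had the same order apart from the top pair, from 207 ± 59.4 CPM in NP-like to 532 ± 143 CPM in PEP1-like neurons. *Sox11* went from 5.52 ± 4.19 CPM in NP-like to 21.4 ± 7.95 CPM in PEP2-like neurons, with PEP3-like neurons at 5.995 ± 5.42 CPM and at 0 counts in 1 of 11 samples. *Smad1* ran from 111 ± 24.0 CPM in NP-like over 225 ± 25.3 and 230 ± 33.2 CPM in PEP1-like and PEP2-like to 286 ± 75.3 CPM in the 29 cold-like neurons. For these 4 genes NP-like and PEP3-like neurons were at the bottom.

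*Stat3*, *Klf6* and *Klf7* had another order, with NF-like neurons lowest. *Stat3* was at 322 ± 32.4 CPM in NF-like and 454 ± 29.004 CPM in PEP3-like neurons, which were above the other cells of their sample in 11 of 11 samples. *Klf6* went from 118 ± 34.7 CPM in NF-like to 260.2 ± 75.1 CPM in PEP2-like neurons and *Klf7* from 290.0 ± 39.8 to 467 ± 57.1 CPM, in the same types. NF-like neurons were above the other cells of their sample in 0 of 15 samples for each of the 3. The range between types was 4.59-fold for *Atf3*, 3.88-fold for *Sox11*, 2.57-fold for *Jun* and *Smad1*, 2.20-fold for *Klf6*, 1.61-fold for *Klf7* and 1.59-fold for *Stat3*. NF-like neurons were also the deepest, at a median of 441320 to 526885 UMIs per cell by cluster, against 151564 to 204333 in PEP2-like and PEP1-like cells.

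**Figure D3:**
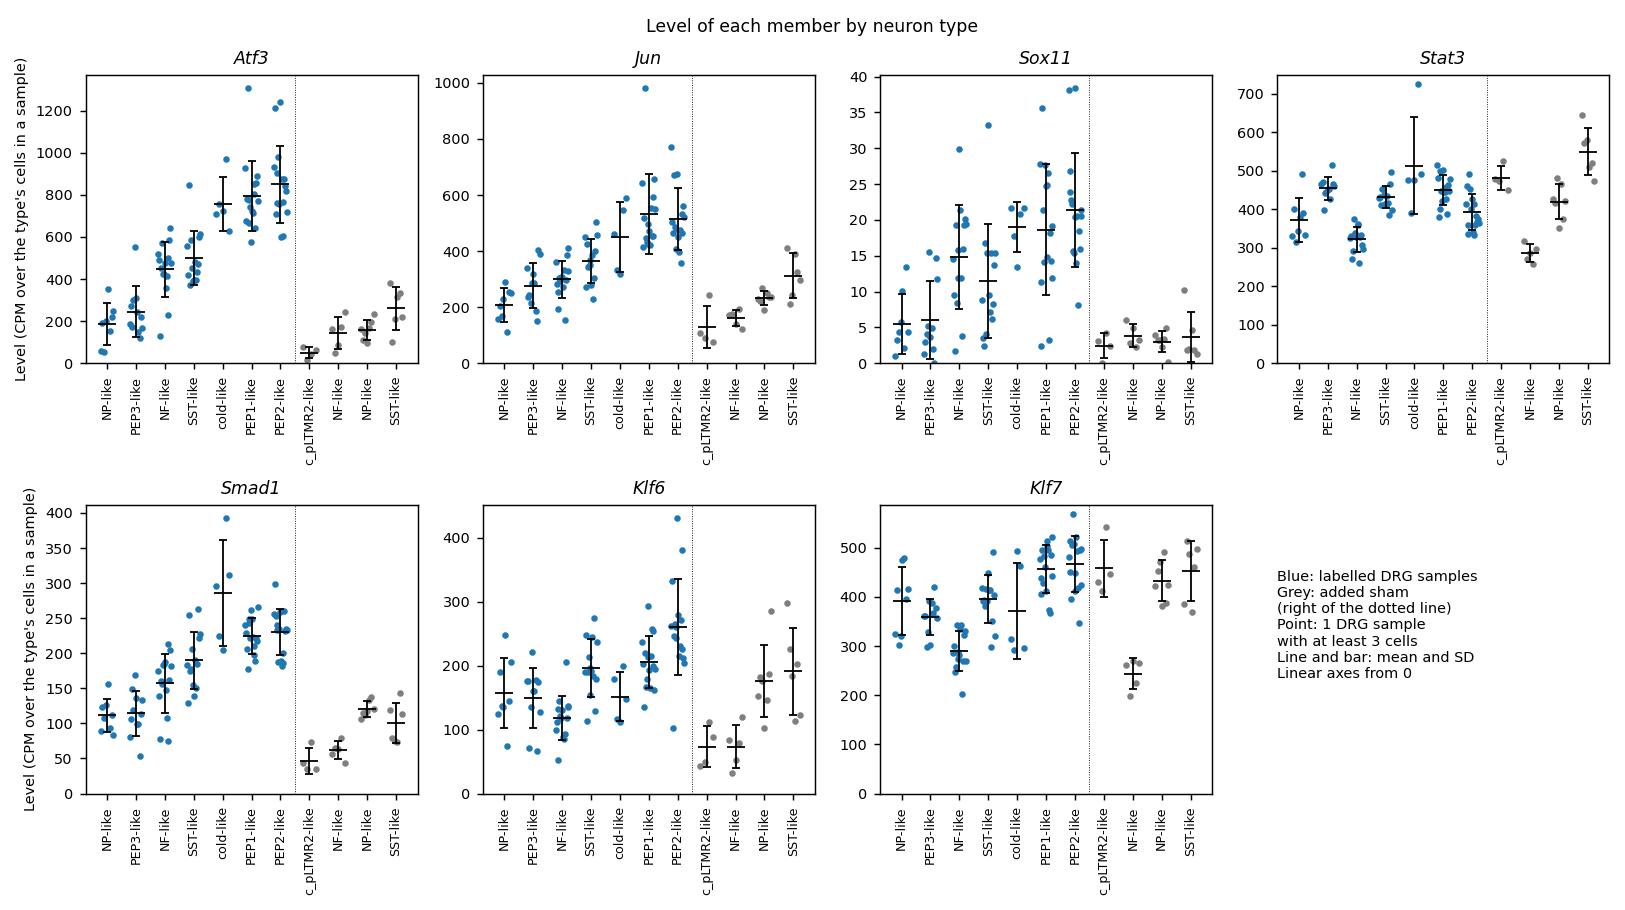
Level of each gene (CPM over the cells of a type in a sample, linear axes from 0) by neuron type, in labelled samples (blue) and added sham (grey, right of the dotted line); points are DRG samples with at least 3 such cells, and the line and bar are the mean and SD. Mean *Atf3* is 185 CPM in NP-like and 850 CPM in PEP2-like labelled neurons, while *Stat3*, *Klf6* and *Klf7* are lowest in NF-like neurons in both sets or share that place with c_pLTMR2-like neurons.

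In added sham, where no cluster was named as PEP1-like or PEP2-like and the cluster of 136 cells stayed unnamed, *Atf3* was at 260.2 ± 102.5 CPM in SST-like (n = 6), 159 ± 47.8 in NP-like (n = 7), 143 ± 75.4 in NF-like (n = 5) and 50.9 ± 27.7 CPM in c_pLTMR2-like neurons (n = 4), a putative C-fibre mechanoreceptor. NF-like neurons had the lowest mean of *Stat3* (286 ± 23.2 CPM), *Klf6* (73.2 ± 33.2) and *Klf7* (244 ± 31.2) there as well, for *Klf6* level with the 73.4 ± 32.3 CPM of c_pLTMR2-like neurons. In the 106 cells that were PEP-like in the other clustering, *Atf3* was at 125.9 ± 69.4 CPM and *Sox11* at 3.50 ± 1.32 CPM (n = 6). Among the types named in the first clustering, *Smad1* was highest in NP-like neurons, at 120.2 ± 11.3 CPM, above the other cells in 7 of 7 libraries, where labelled neurons had their lowest mean. By group, *Atf3* in PEP1-like neurons was 923 ± 275 CPM in labelled sham and 689 ± 89.2, 762 ± 75.8 and 793 ± 95.5 CPM after SNC, in order of time. In NP-like neurons it was 101 ± 79.8 CPM in labelled sham (n = 3) and 236 ± 105 at 1 day (n = 3), with overlap.

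Between neurons of a sample, *Atf3* and *Jun* went together. Their mean Spearman correlation over the 16 labelled samples was 0.69, from 0.53 to 0.88 and above 0 in 16 of 16, each sample holding 24 to 96 cells that share a library, their depth scale and their types. It was 0.73 in labelled sham and 0.71, 0.63 and 0.68 after SNC, in order of time. It was 0.51 in cells thinned to 20000 UMIs, 0.59 within neuron types and 0.53 within clusters, the last chosen after seeing the data. In added sham it was 0.51, from 0.40 to 0.63. Correlations are given as descriptions with no test.

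*Smad1* joined this pair in labelled neurons, with 0.51 to *Atf3*, 0.50 to *Jun* and 0.43 to *Sox11*, each above 0 in 16 of 16 samples, while in added sham the same pairs had 0.22, 0.22 and 0.05. *Klf6* and *Atf3* had the higher value in added sham, with 0.29 in labelled and 0.53 in added neurons. *Stat3* and *Klf7* went with each other in both sets (0.36 and 0.43) and little with *Sox11*, at 0.04 and 0.13 in labelled and −0.10 and −0.14 in added neurons. All 21 pairs of members had a mean above 0 in labelled neurons, the lowest being *Sox11* with *Stat3*.

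**Figure D4:**
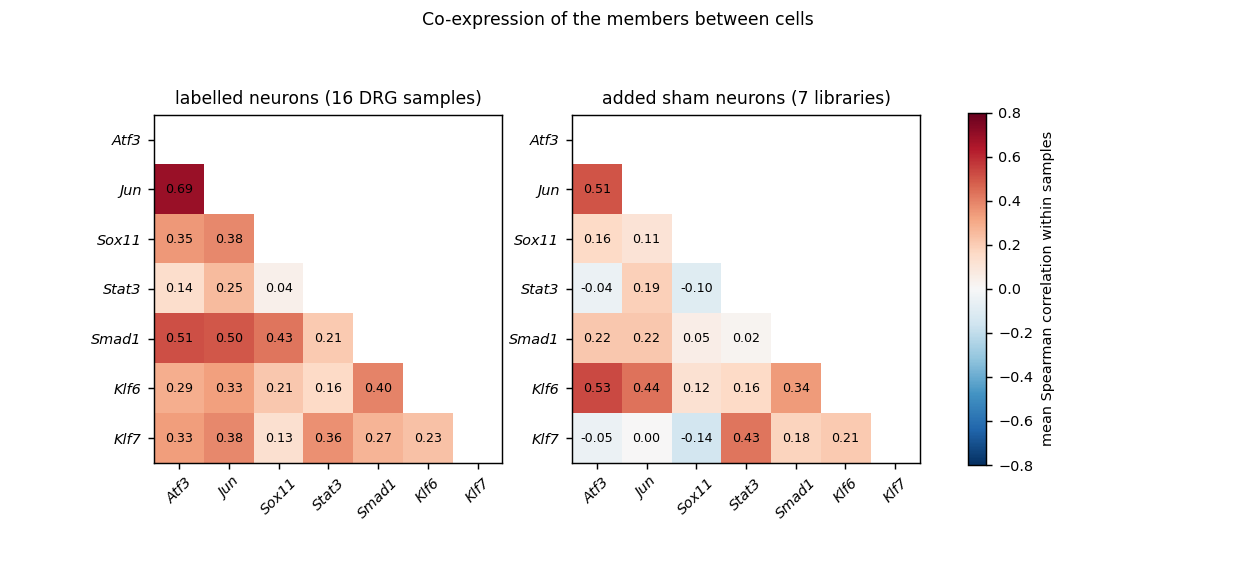
Mean Spearman correlation of each pair of members between the cells of a sample, over 16 labelled DRG samples (left) and 7 added sham libraries (right); colour and number give the same value. *Atf3* with *Jun* is the highest labelled pair at 0.69, and the pairs of *Smad1* with *Atf3*, *Jun* and *Sox11* are lower in added sham.

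By the same measure, the 5 genes most like each member were sought among 11478 other genes with a UMI in at least 20% of labelled cells, over 16 samples. *Atf3* was followed most closely by *Gadd45a* (0.84, from 0.47 to 0.94), a stress gene of growth arrest and DNA repair, and then by *Jun*, *Cacna2d1* (0.67), *Hspb1* (0.67) and *Kif22* (0.66), where the median gene had −0.12 and the 95th percentile 0.22. *Jun* had *Atf3* first, then *Cacna2d1* (0.59), *Gadd45a* (0.59), *Tln1* (0.57) and *Flrt3* (0.56). *Smad1* had *Flrt3* (0.62), *Tln1* (0.55), *Pvr* (0.54), *Stmn4* (0.54) and *Tmbim1* (0.54). *Gadd45a*, *Cacna2d1*, *Flrt3* and *Stmn4* are on the list of injury effectors.

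The nearest genes of the other members were different names. *Klf6* had *Arl4a* (0.49), *Gadd45g* (0.47), *Btg2* (0.46), *Ppp1r15a* (0.43) and the histone gene *H3f3a* (0.42). *Klf7* had *Zfr* (0.56), *Scd2* (0.53), *Tpr* (0.53), *Dst* (0.53) and *Cdk14* (0.52), and *Stat3* had *Syt4* (0.48), *Maged1* (0.45), *Fgf13* (0.41), *Zfr* (0.40) and *Nedd4* (0.39). *Sox11*, with few UMIs per cell, had weak likeness to *RGD1306556* (0.47), *Rhoq* (0.46), *Has1* (0.45), *Tnik* (0.45) and *Sema6a* (0.45). In thinned cells *Gadd45a* stayed first for *Atf3* at 0.73, while *Jun* moved to place 11 and *RGD1306556* to place 1454 for *Sox11*, at 0.05.

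Injury effectors were correlated with *Atf3* in the same way. *Gal*, *Stmn4*, *Sprr1a* and *Gap43* had mean correlations with *Atf3* of 0.64, 0.65, 0.63 and 0.53 over 16 labelled samples. In added sham *Gal*, *Stmn4* and *Gap43* had 0.14, 0.17 and 0.08 over 7 libraries, and *Sprr1a*, a small proline-rich protein of regrowing axons, had transcripts in 1 library only. *Bdnf*, a growth factor of sensory neurons, had the opposite sign in the sets, at −0.36 and 0.26. The difference between the sets was not tested.

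A pair of libraries at 7 days after SNC differed in the share of directly injured cells. Of 24 cells each, one held 20 directly and 4 indirectly injured cells by its label and the other 4 and 20. The paper's Results and Methods assign the dyes to opposite branches. Which library held more crushed neurons thus rests on the labels, and under the other assignment the libraries would swap. They differed in neuron types too: the first held 10 NF-like, 5 PEP1-like, 3 PEP2-like and 3 SST-like cells, and the other 3 NF-like, 5 PEP1-like, 4 PEP2-like and 8 SST-like cells. The part of these types in the values that follow was not tested. Summed over cells, the library with 20 directly injured cells had 371 CPM of *Atf3* (95% Poisson interval 359 to 383) and the other 499 CPM (485 to 513); intervals cover counting error only. The other 6 members were lower in the same library too: *Jun* at 236 against 337 CPM, *Smad1* at 112 against 187, *Klf6* at 148 against 255, *Stat3* at 312 against 384, *Klf7* at 259 against 336 and *Sox11* at 5.28 against 10.2 CPM. With 1 library each there is no test, and the libraries cannot be told apart from their contents. In thinned cells *Stat3* had the other order, at 335 against 319 CPM, and the remaining 6 kept theirs.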

How the data were processed

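The deposited counts are whole numbers of UMIs per gene and cell, not normalized. Per the labels and the paper's methods, the authors aligned reads to the rat genome Rnor_6.0 with STAR, assigned them with featureCounts and collapsed them with UMI-tools. The 24 files were matched by gene name, and 1433 cells passed the filter. The 7 members and the gene lists were chosen with earlier results of these data known. Named genes are the members, the listed genes past the threshold or nearest to it, and the 5 genes most like each member.

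Counts were summed per DRG sample (2 libraries of 1 sample joined) and tested with edgeR 4.0.16 (quasi-likelihood, TMM, filterByExpr, Benjamini-Hochberg adjustment, threshold 0.05), with the 4 labelled groups in 1 fit of 16 samples and all 5 groups in another of 23. DESeq2 1.42.0 and limma 3.58.1 (log2 CPM with a pseudocount of 1) were alternatives. Cells were clustered with Seurat 5.3.0 at resolution 0.5 on 40 components, separately for labelled and added cells, without the members among the variable genes, and types were compared in samples with at least 3 cells. No doublet caller was run, since neurons were picked by hand. Shares used exact permutation tests. The fits were tested on simulated data. P-values measure the spread between these samples, whose rats are not numbered in the labels. R 4.3.3 and Python 3.11.15 were used.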

Additional observations from a re-analysis of the deposited data

Results flagged for a closer look

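In 2 of 28 sets of a member and a group with 4 or more samples, 1 sample stood apart from the rest of its group by Dixon's ratio at the 95% level; chance would mark about 1 in 20. *Smad1* in the first SNC 1 d sample was at 176 CPM, below the other 3 at 193 to 196 CPM. *Smad1* in the SNC 7 d library with 20 directly injured cells was at 115 CPM, below the other 4 samples at 195 to 220.1 CPM.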

How the results depend on the processing

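With 0 members called in each of the 5 comparisons among labelled samples, no alternative called any, and the count stayed at 0 to 0 with each sample left out. The alternatives included a fit in which the pairs of libraries that share a sample number and group were joined, also with 0 members called. Against added sham the count was 4 to 6 in labelled sham and 4 to 5 at each SNC time with a sample left out, 5 in cells thinned to 20000 UMIs, 5 at SNC 7 d with limma, and 4 with DESeq2, its size factors, no filter, glia-high clusters left out (by either clustering) or the added sham of day 0 only. Beside these counts, 49.4% to 58.3% of all genes were called in thinned cells and 50.6% with limma at SNC 7 d. The share was 43.5% to 55.2% with DESeq2, 22% to 31.6% with no filter and 26.4% to 53.1% with a sample left out. The member count was 0 in NP-like neurons for labelled sham, SNC 1 d and SNC 3 d and 2 in SST-like neurons for labelled sham, fits chosen after seeing the data. In NP-like neurons *Atf3* (−0.58), *Jun* (−0.39), *Sox11* (−0.035) and *Smad1* (−0.14) in labelled sham, *Jun* at 1 day (−0.033) and *Smad1* at 3 days (−0.32) had the opposite sign, and in SST-like neurons *Stat3* was lower at 3 days (−0.37, adjusted p of 0.041) and 7 days (−0.33, adjusted p of 0.021). The cause was not tested.

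Without the filter on low counts, 1 member was called in PEP1-like neurons (*Jun* at 1 day, −0.57, adjusted p of 0.040) and 1 in PEP3-like neurons (*Atf3* at 1 day, 0.76, adjusted p of 0.047), where 184 and 58 genes were called in place of 1 and 0; leaving out samples gave 0 to 0 in PEP1-like, PEP2-like, PEP3-like and NF-like neurons. Over the 5 labelled comparisons, DESeq2 called 0 to 21 genes, the date block 0 to 4, and the year term and the fit with no filter 0 to 1, none a member. The correlation of *Atf3* with *Jun* was 0.51 in thinned cells, 0.59 within types and 0.53 within clusters. The share tests passing stayed at 0 to 0, which says nothing about stability, since a single test at the smallest p could not pass the adjustment over 28 tests. No paired analysis was possible because the labels give no replicate numbers shared between groups; the dates of reverse transcription that groups share were used as a block instead.

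*Sox11* rests on few UMIs per neuron, and 44 labelled and 10 added neurons lay under 20000 UMIs. With 3 to 5 samples a group, differences the size of those seen after SNC were not detectable.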
